A study of Ambystoma mexicanum with 61 samples.

Results

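*Klf9* and *Dio3* (gene models KLF9 and DIO3) are 2 thyroid hormone response genes, and their transcripts were followed here through 61 bulk RNA-seq libraries of adult axolotl tissues. They were taken from 23251 gene models by the symbol in the gene identifier, and each symbol had 1 model. Both passed the filter on low counts. The axolotls were of the d/d strain and 1 year old. Neotenic animals, which keep the larval form as adults, gave 34 libraries, 2 from each of 17 tissues. Metamorphosed animals, which had been kept with L-thyroxine (T4) at 50 nM for about 12 days and then for another 2 weeks until the gills were gone, gave 27 libraries from 15 tissues, with 1 library each for brain, fore limb and heart and none for gill and gonad. According to the methods, 2 animals per state were used for bulk RNA-seq, so that tissues with the same state and replicate number may come from the same animal. The titles call these numbers batches and do not say what was shared within them.

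*Klf9* encodes a zinc finger transcription factor of the Krüppel-like family. In frog tadpoles and in mammalian cells it is switched on directly by the thyroid hormone receptor, and in mammals also by the glucocorticoid receptor. *Dio3* encodes the type 3 deiodinase, the selenoenzyme that removes an iodine from the inner ring of thyroxine and triiodothyronine and so inactivates them. In frog tadpoles its transcription rises with thyroid hormone, and it limits how much hormone a metamorphosing tissue sees.

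The model of *Klf9* (AMEXTC_0340000014065_KLF9) lies on the plus strand of scaffold AMEXG_0030000485 of the AmexG_v3.0.0 assembly, from 5917201 to 5961025. It has 2 exons of 927 and 2154 bases, 3081 in all, around an intron of 40744 bases. The model of *Dio3* (AMEXTC_0340000000881_DIO3) is a single exon of 1952 bases on the plus strand of scaffold AMEXG_0030008939, from 219917 to 221868. Counting did not use strand, so that reads of an antisense transcript over either exon could not be told apart. *Klf9* held 3262 counts over the 61 libraries and *Dio3* 8491. *Klf9* was at 0 in 1 library and had 3 counts or fewer in 4 libraries, and *Dio3* was at 0 in 5 and had 3 or fewer in 11, so that the lowest values below rest on few reads.

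Library totals ranged from 2888466 to 16895107 counts in neotenic tissues and from 69278 to 27389476 in metamorphosed tissues, and the lowest was metamorphosed skin 1, in which 3 counts were already worth 24.2 CPM. CPM are counts scaled to a common library total with trimmed mean of M-values (TMM) factors, and levels are given in this unit. Panels of marker genes, given as the mean log2(CPM + 1) over the matched genes, went against some labels. The library labelled neotenic tail 2 had the stomach gland panel (3 of 11 genes matched) at 11.2 and that labelled neotenic stomach 2 had it at 3.79, while the keratinocyte panel (5 of 10 matched) was at 3.32 and 6.40. The skeletal muscle panel (11 of 14 matched) was at 2.03 in tail 2 and at 7.52 in stomach 2. The metamorphosed libraries bladder 2, fore limb 1, hind limb 2, skin 2 and intestine 2 shared transcripts of the intestinal, the kidney tubule and the male germ line and cilia panels. In these 5 the kidney tubule panel (6 of 9 matched) was at 4.38 to 5.01, against 2.71 or less in the 52 other libraries outside kidney. The male germ line and cilia panel (7 of 10 matched) separated them less, at 4.44 to 5.33 against up to 4.17 in the 54 other libraries outside gonad. Neotenic bladder 2 had the skeletal muscle panel (11 of 14 matched) at 8.97 against 1.90 in bladder 1, and the leukocyte panel (7 of 10 matched) was at 5.48 in gonad 1 and 1.00 in gonad 2. These libraries were kept, and results that rest on them are given with their values.

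In neotenic animals *Dio3* was by far most abundant in the liver. Its level was 248 CPM in liver 1 and 164 CPM in liver 2, a mean of 206 ± 59.5 (SD, n = 2), and the next highest neotenic library, hind limb 1, held 31.4 CPM. The liver was followed by the hind limb (21.2 ± 14.4), the gill (19.4 ± 0.863) and the skin (18.4 ± 0.501), and then by the fore limb (11.9 ± 0.937), each the mean ± SD of 2 libraries. The limbs, gill and skin were thus high in both replicates. Stomach, gonad, tail, kidney and lung had means of 6.28 to 9.25 CPM, but each of them joined a high and a low library. In the lung the values were 11.5 and 1.08 CPM, in the kidney 13.4 and 3.33 and in the gonad 2.65 and 15.1. The libraries labelled stomach held 0.217 and 18.3 CPM and those labelled tail 16.8 and 0 CPM, so that the high and the low library of these tissues changed places with the stomach gland and keratinocyte panels. Of these libraries, those with the high stomach gland panel, stomach 1 and tail 2, held 0.217 and 0 CPM. Those with the high keratinocyte panel, tail 1 and stomach 2, held 16.8 and 18.3 CPM. The means by label mix them.

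The remaining 7 neotenic tissues had little *Dio3*. Brain held 0.655 and 1.98 CPM, cloacal chamber 0.870 and 1.12, and bladder 0.218 and 1.65. Eye held 1.27 and 0.228 CPM and heart 0.510 and 0.458. In the intestine 2 counts were found in replicate 1 (0.265 CPM) and none in replicate 2, where 3 counts would be 0.595 CPM. Both spleen libraries had 0 counts, which allows levels of up to 0.557 and 0.410 CPM for 3 counts, and these limits cover counting error only. Of the 16 pairs of neighbours in the order of neotenic means, the libraries did not overlap in 3 (liver above hind limb, skin above fore limb, heart above intestine), and for the other 13 pairs the order lay within the spread of the libraries.

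**Figure D1:**
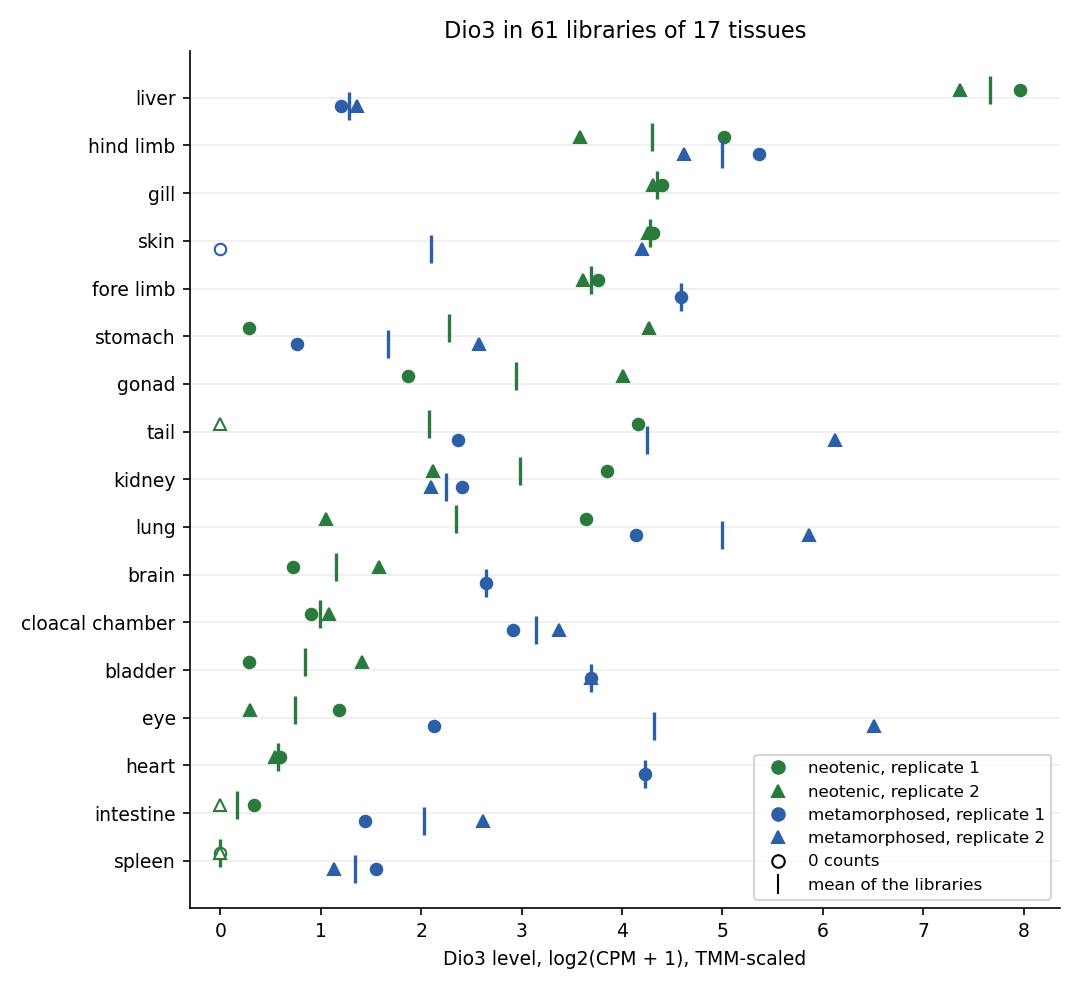
*Dio3* level as log2(CPM + 1), TMM-scaled (x axis), in each library of 17 tissues (y axis, ordered by the neotenic mean CPM). Green marks neotenic and blue metamorphosed libraries, circles replicate 1 and triangles replicate 2, open symbols 0 counts, and vertical bars the mean of the plotted values. The neotenic liver libraries (248 and 164 CPM) stand apart on the right and the metamorphosed liver libraries (1.30 and 1.56 CPM) at the left.

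The neotenic tissues differed in *Dio3* beyond the spread of the libraries. The edgeR quasi-likelihood F test over the 17 tissues gave an adjusted p of 4.14e-06, in a comparison that called 65.3% of the 20216 genes tested. Against the mean of the other 16 tissues, the liver was higher by 6.29 on the log2 scale (SE 0.627, edgeR, adjusted p = 6.58e-10), where 11.2% of genes were called higher. Hind limb (2.81, SE 0.790, adjusted p = 0.0201), gill (2.67, SE 0.799, adjusted p = 0.0278) and skin (2.59, SE 0.802, adjusted p = 0.0423) also passed, where 7.23%, 7.78% and 6.58% of genes were called higher. So did the spleen as lower (adjusted p = 0.0171), with 13.8% of genes called lower. The mean of the others included the spleen at 0 counts, so that these fold changes depended on the prior count and the comparison could not be fitted for 6 tissues with low *Dio3*. Without the spleen, an alternative chosen after seeing the data, the liver alone of 16 tissues passed (5.80, SE 0.630, adjusted p = 7.24e-09), and gill and hind limb came to adjusted p-values of 0.0886 and 0.0968.

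Metamorphosed liver had almost none of this transcript. *Dio3* was at 1.30 and 1.56 CPM in the metamorphosed liver libraries, from 27 counts in all, against 248 and 164 CPM in the neotenic ones, from 3032 counts. The ratio of the means was 144-fold in favour of the neotenic liver, and both neotenic libraries lay above both metamorphosed ones. The edgeR log2 fold change was -7.15 (SE 1.76, n = 2 per state), with an unadjusted p of 0.000287 and an adjusted p of 0.238, in a comparison that called 4 of 20216 genes (0.0198%). The call depended on how the spread was estimated. The adjusted p was 8.34e-05 in DESeq2, 0.0303 in limma voom and 0.00661 in edgeR with the 4 liver libraries alone, an alternative added after seeing the data, while the fold change stayed between -7.22 and -7.14 over 15 alternatives. The hepatocyte panel (11 of 14 genes matched) was at 12.2 and 11.5 in the neotenic liver libraries and at 11.6 and 11.9 in the metamorphosed ones. In bulk tissue, fewer cells of a type and less RNA per cell cannot be told apart. With means of 1.43 CPM after and 206 CPM before metamorphosis, the liver went from the highest to the lowest tissue mean of *Dio3*.

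The direction was opposite in bladder, cloacal chamber, intestine and spleen, which held little *Dio3* in neotenic animals. They are grouped by that low level, from which a value can mainly rise, so that the grouping is no test of direction. None of them passed in edgeR (adjusted p = 0.482 in bladder, 0.544 in intestine, 0.476 in spleen, and higher in cloacal chamber). In the bladder *Dio3* was at 0.218 and 1.65 CPM before and at 11.9 CPM in both libraries after metamorphosis, a 12.7-fold higher mean. In the cloacal chamber it went from 0.870 and 1.12 to 6.51 and 9.38 CPM, 7.97-fold. In the intestine 2 counts in the neotenic libraries stood against 51 in the metamorphosed ones, at 1.71 and 5.14 CPM, and the ratio of the pooled counts had an exact 95% interval of 6.99 to 226, which covers counting error only and not the spread between libraries. In these 3 tissues both metamorphosed libraries lay above both neotenic libraries. The spleen went from 0 counts in both libraries to 1.93 and 1.18 CPM, at least 3.22-fold higher when 3 counts per neotenic library are taken as the floor. Bladder 2 and intestine 2 are among the 5 libraries with shared transcripts. Over 15 alternatives, fits without them included, the log2 fold change stayed between 3.50 and 3.88 in bladder and between 3.35 and 4.58 in intestine. Fits without them rest on 1 metamorphosed library of the tissue.

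In the eye and the lung the higher mean after metamorphosis came mostly from replicate 2. Eye libraries held 1.27 and 0.228 CPM before metamorphosis and 3.36 and 90.2 CPM after it, a 62.6-fold higher mean of which 1 library made up nearly all. Lung libraries held 11.5 and 1.08 CPM before and 16.6 and 57.0 CPM after it, 5.86-fold. The tail repeated this pattern, with 4.17 and 68.8 CPM after metamorphosis, but its groups overlapped because the library labelled neotenic tail 1 held 16.8 CPM. The hepatocyte panel was also higher in metamorphosed eye 2, lung 2 and tail 2 (4.64 to 4.92) than in replicate 1 of these tissues (1.76 to 2.05). The median of this panel over the metamorphosed libraries outside liver was 4.24. Metamorphosed liver itself held 1.30 and 1.56 CPM of *Dio3*. The part of hepatocyte transcripts in the *Dio3* values of eye, lung and tail was not tested.

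Brain, heart and fore limb had 1 metamorphosed library, so that their differences have no replicate check. Heart was at 17.8 CPM after metamorphosis against 0.510 and 0.458 CPM, a 36.7-fold ratio. Brain was at 5.26 CPM against 0.655 and 1.98 CPM, 3.99-fold. Fore limb 1, 1 of the 5 libraries with shared transcripts, was at 23.0 CPM against 12.6 and 11.2 CPM, 1.94-fold. In all 3 tissues the metamorphosed library lay above both neotenic ones. For *Klf9* it did so in brain and heart but not in fore limb. The share of all genes that do so was not counted, so that this is no result particular to *Dio3*.

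In hind limb, kidney and stomach the *Dio3* levels of the states overlapped. Hind limb held 31.4 and 10.9 CPM before and 40.2 and 23.6 CPM after metamorphosis. Skin held 18.8 and 18.1 CPM before and 17.4 CPM in metamorphosed skin 2, while skin 1 had 0 counts at a depth at which up to 24.2 CPM would go unseen. Kidney held 13.4 and 3.33 CPM before and 4.29 and 3.28 CPM after. The skin libraries are not counted as separate because the lowest of them is the shallow library. In the stomach the values were 0.217 and 18.3 CPM before and 0.697 and 4.95 CPM after, with the high neotenic value in the library that lacked the stomach gland panel. The fold change in the stomach was -1.65 (SE 1.42, edgeR) and became 3.69 without the libraries labelled stomach 2 and tail 2, with adjusted p-values of 0.779 and 1. That in the kidney was -1.16 and became 0.17 without neotenic kidney 1, and that in the tail was 2.10 and became -1.03 without metamorphosed tail 2.

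After metamorphosis the order of the tissues was led by eye (46.8 ± 61.4 CPM, SD, n = 2), lung (36.8 ± 28.6), tail (36.5 ± 45.7) and hind limb (31.9 ± 11.8). It ended with stomach (2.82 ± 3.01), spleen (1.56 ± 0.528) and liver (1.43 ± 0.189). The libraries did not overlap in 5 of the 14 pairs of neighbours, and each of the 5 involved a tissue with 1 library. The order among eye, lung, tail and hind limb, and that from kidney down to liver, lay within the spread.

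**Figure D2:**
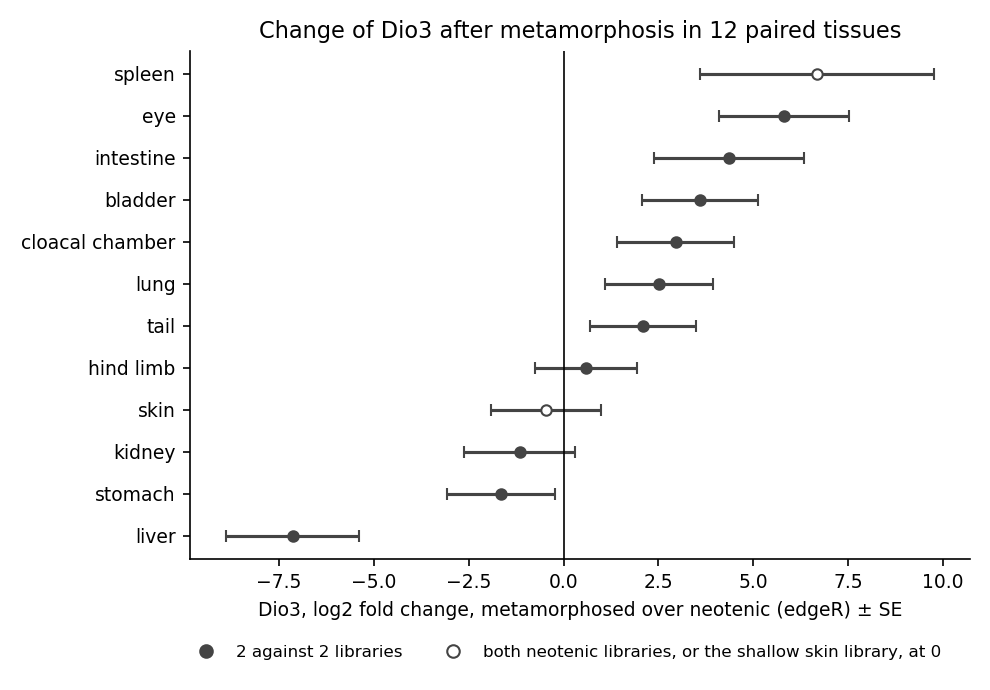
Change of *Dio3* after metamorphosis (x axis, log2 fold change of metamorphosed over neotenic, edgeR) in the 12 tissues with 2 libraries per state (y axis). Points are estimates and bars ± 1 SE, and open circles mark spleen, whose neotenic libraries were both at 0 so that its estimate depends on the prior count, and skin, with the shallow library at 0. The liver lies at -7.15, and bladder, cloacal chamber, eye, intestine and lung lie between 2.52 and 5.81.

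Among the 12 tissues with 2 libraries per state, no tissue passed the threshold of 0.05 for *Dio3* in edgeR, with adjusted p-values from 0.238 to 1. The share of genes called was 4.89% in skin, 0.717% in tail, 0.599% in hind limb, 0.49% in spleen, 0.0198% in liver and 0.00495% in bladder, and 0% in the other 6 tissues. At an unadjusted p under 0.05 there were 5, bladder, eye, intestine, liver and spleen, and DESeq2 called 2, eye (adjusted p = 0.0177) and liver. Both metamorphosed libraries lay above both neotenic ones in 6 tissues (bladder, cloacal chamber, eye, intestine, lung and spleen), and over all genes and tissues 16.9% of pairs did so, while in 18% both neotenic libraries lay above. At least that many tissues with metamorphosed libraries above were found for 6.14% of genes. The difference of the change between the 12 tissues had an unadjusted p of 0.000621 and an adjusted p of 0.154 in the edgeR F test, which called 14 genes (0.0693%). It was 0.000146 in DESeq2, 0.0394 in limma voom and 0.0237 in edgeR without the libraries labelled neotenic stomach 2 and tail 2.

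Averaged over the 12 tissues, *Dio3* rose by 1.51 on the log2 scale (SE 0.495, edgeR, adjusted p = 0.0301), with a higher mean level in 8 tissues and a lower one in 4. This comparison called 17.9% of all genes, and 10.9% of them as higher. The 4 lower tissues include skin, with the shallow library at 0 counts. They also include stomach, whose high neotenic value is in the library that lacked the stomach gland panel. The average contains the spleen, whose estimate depends on the prior count. Without it the value was 1.02 (SE 0.454) with an adjusted p of 0.125. The call was also lost when any 1 of 6 libraries was left out, among them metamorphosed eye 2 (1.20, adjusted p = 0.0880) and tail 2 (1.25, adjusted p = 0.0832). With the mean log2(CPM + 1) over the 12 tissues as 1 value per replicate number, *Dio3* was at 2.66 and 2.12 in neotenic and at 2.33 and 3.68 in metamorphosed axolotls. The groups overlapped, and the exact two-sided permutation test gave p = 0.667, where 2 against 2 cannot go below 0.333.

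*Klf9* spanned a narrower range of levels over the tissues. Its neotenic means ran from 1.42 ± 1.04 CPM in the eye to 15.5 ± 16.9 CPM in the liver (SD, n = 2), with a median of 5.52 over the 17 tissues. The liver libraries held 27.4 and 3.54 CPM and the intestine libraries 12.3 and 4.56 CPM. The lowest tissues were heart (4.47 and 0.573 CPM), brain (1.75 and 1.98 CPM) and eye (2.15 and 0.685 CPM). In none of the 16 pairs of neighbours did the libraries separate. The edgeR F test over the neotenic tissues gave an adjusted p of 0.578 for *Klf9*, and no tissue stood apart from the others, whereas limma voom gave 0.0424 and called the gonad.

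As a ratio, the widest gap between neotenic replicates was in the gonad, where *Klf9* had 149 counts (18.8 CPM) in replicate 1 and 1 count (0.0465 CPM) in replicate 2. These libraries correlated least of all replicate pairs (Pearson r = 0.695 over genes, against 0.774 to 0.980 in the other pairs) and differed in the leukocyte panel. Per kilobase of exon, the tissue means of *Klf9* lay between 0.461 and 5.02 CPM in neotenic tissues and those of *Dio3* between 0 and 106 CPM. *Dio3* had the higher level per kilobase in 11 of the 17 neotenic tissues and in 10 of the 15 metamorphosed tissues.

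**Figure D3:**
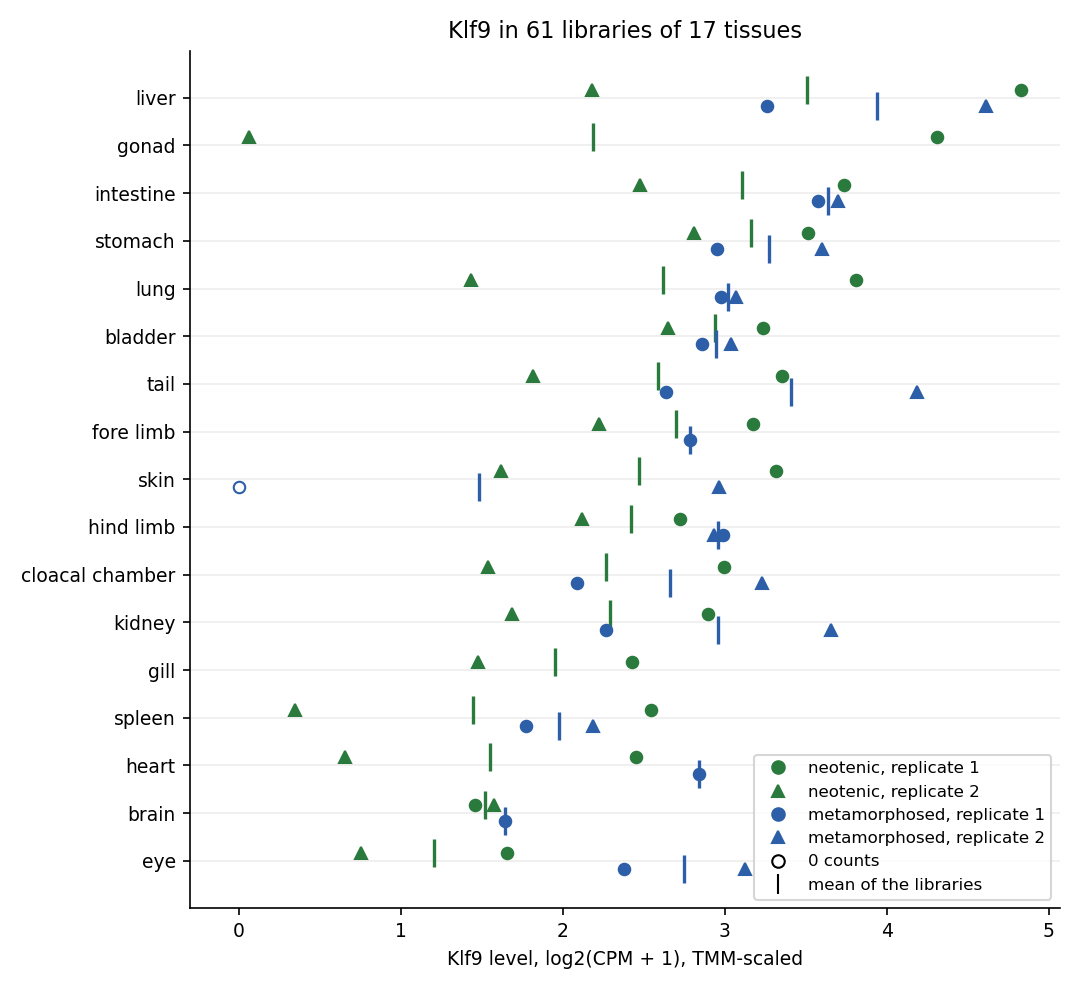
*Klf9* level as log2(CPM + 1), TMM-scaled (x axis), in each library of 17 tissues (y axis, ordered by the neotenic mean CPM), with the symbols of the plot of *Dio3* levels. In 16 of 17 tissues the neotenic circle (replicate 1) lies to the right of the neotenic triangle (replicate 2), and the metamorphosed values mostly lie between or beyond them.

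After metamorphosis *Klf9* ranged from 2.13 CPM in the single brain library to 16.1 ± 10.6 CPM in the liver, with a median of 6.73 over 15 tissues. Liver held 8.58 and 23.5 CPM, intestine 10.9 and 12, tail 5.21 and 17.2 and kidney 3.81 and 11.6. Metamorphosed skin 1 had 0 counts and allows no statement below 24.2 CPM. Both metamorphosed libraries lay above both neotenic ones in 2 tissues. In the eye *Klf9* went from 2.15 and 0.685 to 4.20 and 7.71 CPM (log2 fold change 1.99, SE 1.35, edgeR, adjusted p = 0.898), and in the hind limb from 5.61 and 3.34 to 6.93 and 6.65 CPM. Of all genes, 51.4% had at least 2 such tissues. In the other 10 tissues the libraries of the states overlapped.

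No tissue passed the test for *Klf9* (lowest adjusted p = 0.841 in edgeR, 0 of 12 at an unadjusted p under 0.05, and none in DESeq2 or limma voom). The mean change over the 12 tissues was 0.46 on the log2 scale (SE 0.365, edgeR, adjusted p = 0.455), and it stayed between 0.37 and 0.72 when single libraries were left out. The change did not differ detectably between tissues (edgeR F test, adjusted p = 1).

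*Klf9* differed between the replicate numbers in nearly every tissue. In neotenic animals replicate 1 was higher than replicate 2 in 16 of 17 tissues, the brain being the exception, with medians of 8.03 and 2.07 CPM. Of all genes, 1.15% were as one-sided over the 17 tissues. With the replicate number as a term within each state, neotenic replicate 2 was lower than replicate 1 by 1.89 on the log2 scale (SE 0.325, edgeR, adjusted p = 0.000286), in a comparison that called 1.94% of genes. In metamorphosed animals the order was turned. Replicate 2 was higher in 11 of 12 tissues, the exception being the hind limb (6.93 and 6.65 CPM), with medians of 5.73 and 8.05 CPM. Of all genes, 14.1% were as one-sided over these 12 tissues. The 11 tissues include skin, whose replicate 1 is the shallow library with 0 counts. The difference between the metamorphosed numbers was 0.81 (SE 0.371, edgeR, adjusted p = 0.0961) where 29.5% of genes were called.

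The change with metamorphosis therefore depended on which libraries were set against each other. Among libraries numbered 1, *Klf9* was higher after metamorphosis in 2 of 12 tissues, eye and hind limb, with a mean change of -0.69 (SE 0.361, edgeR, adjusted p = 0.272). Skin is counted as lower there, but its direction is unknown, because metamorphosed skin 1 is the shallow library with 0 counts. Among libraries numbered 2 it was higher in 12 of 12, by 0.39 to 2.43 on the log2(CPM + 1) scale, with a mean change of 2.00 (SE 0.351, edgeR, adjusted p = 6.06e-05). These comparisons called 6.94% and 32.1% of genes. Here and below, a mean change within a number comes from the fit with 1 replicate term for each state. The neotenic term was taken over all 17 neotenic tissues, so that these values also draw on tissues outside the 12. The difference between them was 2.70 (SE 0.494, edgeR, adjusted p = 0.000305), where 22.3% of genes were called. The libraries of 1 state and number may come from 1 animal or batch, which is not stated, so that state, animal and batch cannot be told apart within a number. The numbers are not known to pair the states, and these tests take the tissues of a number as separate. As means of log2(CPM + 1) over the 12 tissues, *Klf9* was at 3.22 and 1.79 in neotenic and at 2.48 and 3.36 in metamorphosed axolotls. These groups overlapped (exact permutation p = 0.667, two-sided, smallest possible 0.333).

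**Figure D4:**
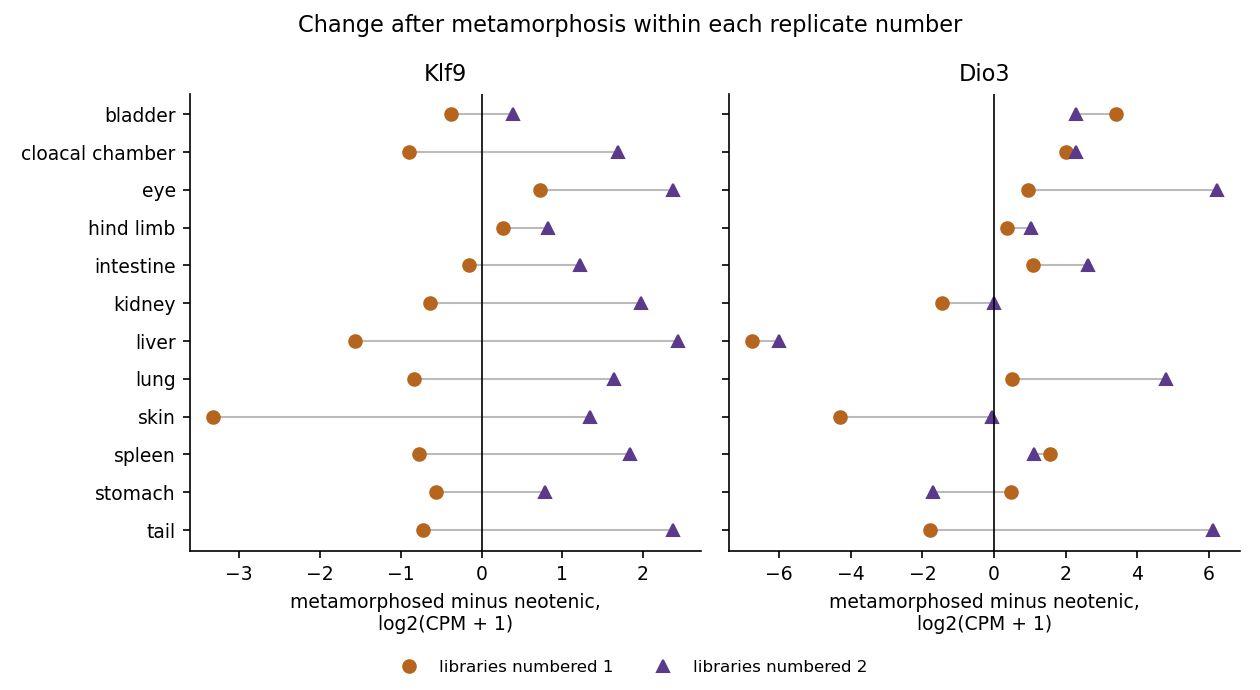
Metamorphosed minus neotenic level of *Klf9* (left) and *Dio3* (right), in log2(CPM + 1) (x axes), between libraries with the same replicate number, in 12 tissues (y axis). For *Klf9* the circles (numbered 1) lie below 0 in 10 of 12 tissues and the triangles (numbered 2) above 0 in 12 of 12. The circles of skin rest on the shallow metamorphosed library with 0 counts for both genes. The triangles of stomach and tail rest on neotenic libraries whose panels went against their labels. For *Dio3* both symbols of the liver lie near -6 and below, and 8 of 12 tissues are above 0 in each number.

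*Dio3* showed no such split between the neotenic numbers. Replicate 1 was higher in 11 tissues and replicate 2 in 5, with the spleen at 0 in both, and the edgeR difference was -0.32 (SE 0.574, adjusted p = 0.901). Within libraries numbered 1 its mean change was 0.62 (SE 0.626, adjusted p = 0.717) and within those numbered 2 it was 2.18 (SE 0.651, adjusted p = 0.0103), and the difference of these changes was 1.56 (SE 0.860, adjusted p = 0.194, all edgeR). *Dio3* was higher after metamorphosis in 8 of 12 tissues in each number. The liver was lower in both, with differences of -6.76 and -6.01 on the log2(CPM + 1) scale. Skin is counted as lower in number 1, where its metamorphosed library is the shallow one with 0 counts. Stomach is counted as lower and tail as higher in number 2, where the panels of their neotenic libraries went against the labels.

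Other genes also differed between the neotenic replicates, among them targets of the glucocorticoid receptor. *Fkbp5*, which encodes a chaperone of steroid receptors and is induced by glucocorticoids in mammals, was higher in replicate 1 in 17 of 17 tissues, with medians of 38.0 and 6.15 CPM (log2 difference -2.74, SE 0.312, edgeR, adjusted p = 2.45e-07). *Zbtb16*, a transcription factor gene also induced by glucocorticoids in mammals, was higher in replicate 1 in 17 of 17 tissues (-2.52, SE 0.396, adjusted p = 7.33e-05), at medians of 1.72 and 0.377 CPM. *Errfi1*, a feedback inhibitor of the epidermal growth factor receptor, was higher in 13 of 17 (-0.95, SE 0.244, adjusted p = 0.0288). Of 8 tested genes on the list of the glucocorticoid receptor and its response genes, these 3 were lower in neotenic replicate 2 and none was higher, where 1.94% of all genes were called. In metamorphosed axolotls *Zbtb16* was again higher in replicate 1, in 10 of 12 tissues (-1.71, SE 0.431, edgeR, adjusted p = 0.00356). *Klf9* was there higher in replicate 2 in 11 of 12. *Errfi1* was higher in replicate 2 (0.80, SE 0.289, adjusted p = 0.0358), and *Fkbp5* did not pass (0.54, SE 0.354, adjusted p = 0.253). Of the 8 genes, 2 were higher and 2 lower in metamorphosed replicate 2, where 29.5% of all genes were called. *Fkbp5*, *Zbtb16* and *Errfi1* were singled out after their values were seen, and their part in the *Klf9* values was not tested.

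Of the 15 tested Krüppel-like factors, *Klf9* and *Klf10* were lower in neotenic replicate 2 and *Klf1* was higher. *Klf10*, an early response gene of transforming growth factor beta, had medians of 124 and 51.0 CPM and was higher in replicate 1 in 16 of 17 tissues (-1.26, SE 0.169, edgeR, adjusted p = 5.33e-06). The neutral amino acid transporter gene *Slc7a8*, which in mammals also carries thyroid hormone, was higher in replicate 1 in 15 of 17 tissues (-0.88, SE 0.226, adjusted p = 0.0286). None of the 8 tested immediate early and handling genes, which rise quickly with stress or handling, passed the test between the neotenic numbers. That comparison called 1.94% of all genes, so that none of 8 says little about these genes. In metamorphosed axolotls 7 of these 8 were higher in replicate 2 (*Fosb*, *Jun*, *Junb*, *Atf3*, *Ier2*, *Ier3* and *Dnajb1*, median difference 2.33 over the 8), where 29.5% of all genes were called. *Klf10* was also higher there (1.22, SE 0.202, adjusted p = 7e-05), in 12 of 12 tissues.

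**Figure D5:**
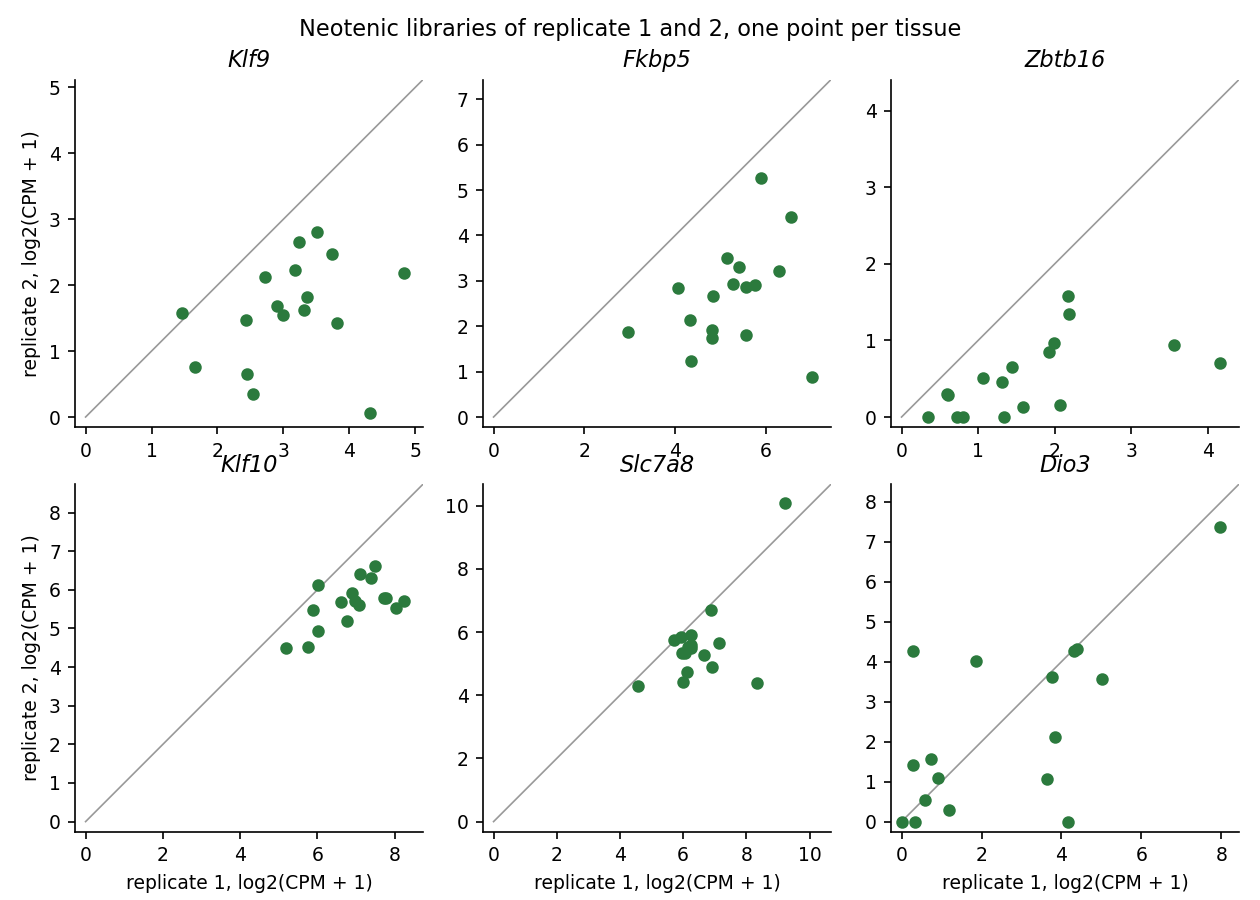
Neotenic replicate 1 (x axis) against replicate 2 (y axis), each in log2(CPM + 1), TMM-scaled, with 1 point per tissue and the line of equal levels, for *Klf9*, *Fkbp5*, *Zbtb16*, *Klf10*, *Slc7a8* and *Dio3*. All 17 points of *Fkbp5* and *Zbtb16* and 16 of *Klf9* lie below the line, while those of *Dio3* lie on both sides.

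Of 9 tested genes on the list of thyroid hormone response genes described in frogs, 7 were higher after metamorphosis in the mean over 12 tissues (*Dio3*, *Mmp2*, *Mmp13*, *Mmp14*, *Hr*, *Bcl6* and *Fap*) and none was lower, with a median change of 1.84. The median over all genes was 0.02, and 10.9% of genes were called higher and 7.01% lower. This and the other lists were chosen with earlier results of these data known, so that their counts are descriptions and no test of the lists. *Hr* encodes hairless, a corepressor of the thyroid hormone receptor that is itself induced by thyroid hormone in the brain of mammals. It had 0 counts in 28 of the 34 neotenic libraries and at most 4 counts in the others. In metamorphosed libraries it had 0 counts in 1 of 27 and more than 3 counts in 21, with the most in liver 1 (68 counts). It was called higher (edgeR, adjusted p = 1.64e-06), but 11 groups were at 0, so that no fold change is given.

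The tests of the mean take the libraries of a state as separate, although several may come from the same animal. Only for *Klf9* and *Dio3* was a test made with 1 value per replicate number. *Bcl6*, a transcriptional repressor, rose by 3.01 on the log2 scale (SE 0.299, edgeR, adjusted p = 1.27e-08) and was higher in 12 of 12 tissues. In the 24 libraries per state it had its lowest, median and highest levels at 1.12, 4.89 and 34.2 CPM before and at 13.2, 43.7 and 151 CPM after metamorphosis. *Mmp2*, a gelatinase, rose by 1.84 (SE 0.237, adjusted p = 1.54e-06) in 12 of 12 tissues, from a median of 84.1 to 272 CPM. *Mmp14*, the membrane-bound protease that activates the *Mmp2* product, rose by 1.28 (SE 0.149, adjusted p = 2.86e-07), in 10 of 12 tissues. The fibroblast protease gene *Fap* rose by 1.03 (SE 0.325, adjusted p = 0.0248), in 12 of 12 tissues. It passed neither within libraries numbered 1 (1.32, edgeR, adjusted p = 0.0678) nor within those numbered 2 (0.71, adjusted p = 0.237). The collagenase gene *Mmp13* rose by 1.87 (SE 0.654, adjusted p = 0.0425) with 7 tissues higher and 5 lower, by 2.71 within libraries numbered 2 (adjusted p = 0.0138), while the change was 0.70 (adjusted p = 0.842) within those numbered 1. Without the 5 libraries with shared transcripts and metamorphosed skin 1 it was 0.19 (SE 1.82, adjusted p = 1). In the liver *Hr* went from 4 and 0 counts to 68 and 13, while *Klf9* changed there by 0.06 on the log2 scale (SE 1.22, edgeR). That *Klf9* value averages 27.4 and 3.54 CPM before with 8.58 and 23.5 CPM after. It was thus lower after metamorphosis in number 1 and higher in number 2. *Bcl6* went there from 10.3 and 4.82 to 51.5 and 23.7 CPM, and *Mmp2* from 28.5 and 35.1 to 51.5 and 142 CPM.

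The genes that receive and carry the hormone are given by list, for the mean over 12 tissues. That comparison called 10.9% of all genes higher and 7.01% lower. *Thra*, *Thrb*, *Dio1* and *Dio2* were not matched to a gene model by symbol and are not analysed here. *Rxra*, the retinoid X receptor that pairs with the thyroid hormone receptor, changed by 0.14 (SE 0.253, edgeR, adjusted p = 0.892). None of the 6 tested corepressor genes passed. Of the 7 coactivator genes *Carm1*, an arginine methyltransferase, fell by 0.51 (SE 0.142, adjusted p = 0.0106). Of 6 genes for transport and binding, *Slc7a8* rose by 1.17 (SE 0.251, adjusted p = 0.00116) and *Ttr* fell (adjusted p = 0.000713). *Slc7a8* rose by 2.10 (adjusted p = 2.12e-07) within libraries numbered 2 and by 0.14 (adjusted p = 0.962) within those numbered 1.

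*Ttr* encodes transthyretin, a carrier of thyroid hormone in blood that is made in the liver. It was at 2994 and 2624 CPM in neotenic liver and at 428 and 167 CPM in metamorphosed liver, so that the libraries did not overlap. Outside the liver the highest of the paired neotenic libraries was intestine 2 at 9.71 CPM, and 2 metamorphosed groups were at 0, so that its mean fold change depends on the prior count. *Dio3* and *Ttr* were thus both lower in the metamorphosed liver libraries, in which the hepatocyte panel lay within 11.6 to 11.9.

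Of 9 genes that respond to thyroid hormone in mammals, *Hr* and *Pck1* rose. *Pck1*, the gluconeogenic carboxykinase, rose by 1.69 (SE 0.378, edgeR, adjusted p = 0.00173), in 9 of 12 tissues. Its change was 2.15 (adjusted p = 0.000763) within libraries numbered 2 and 0.92 (adjusted p = 0.310) within those numbered 1. None of the 8 genes for hormone synthesis and pituitary control passed. Over all thyroid hormone lists, 45 genes were tested of 69 listed, and 9 were higher and 2 lower after metamorphosis, with a median change of 0.14, where 10.9% and 7.01% of all genes were called. In limma voom, with an estimated correlation between libraries of 1 state and replicate number, 5 were higher and 0 lower. Of the genes named, *Bcl6*, *Mmp2* and *Mmp14* passed in each of 14 alternatives that did not leave out a single library and *Hr* in each of 13. The call was lost in 6 of 13 alternatives for *Mmp13*, in 4 of 14 for *Fap*, in 3 of 14 for *Carm1* and *Pck1* and in 1 of 14 for *Slc7a8* and *Ttr*. Of the 15 Krüppel-like factors *Klf2*, induced by blood flow in endothelium, rose by 1.46 (SE 0.329, adjusted p = 0.00185). *Klf5* fell by 0.56 (SE 0.186, adjusted p = 0.0315) and *Klf6* fell by 0.32 (SE 0.112, adjusted p = 0.0457), each in 9 of 12 tissues, and their calls were lost in 4 and 6 of 14 alternatives. *Klf13*, a close relative of *Klf9*, could not be fitted because 3 groups were at 0. The rise of *Klf2* was 2.40 (adjusted p = 1.16e-06) within libraries numbered 2, and within those numbered 1 the change was -0.07 (adjusted p = 1). *Klf2* lost its call in the mean in 3 of 14 alternatives.

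*Zbtb16* rose by 2.12 after metamorphosis (SE 0.491, edgeR, adjusted p = 0.00244) and did so within both replicate numbers (2.05, adjusted p = 0.00145, and 2.86, adjusted p = 1.54e-05). Of 8 tested immediate early and handling genes, 3 rose in the mean, where 10.9% of all genes were called higher. They were *Jun* (1.31, edgeR, adjusted p = 0.00714), *Ier3* (0.99, adjusted p = 0.0444) and the heat shock cochaperone gene *Dnajb1* (1.11, adjusted p = 0.00282). *Jun* and *Ier3* were lower by 0.68 and 0.58 within libraries numbered 1 (adjusted p = 0.103 and 0.404) and higher by 2.32 and 1.81 within those numbered 2. *Dnajb1* changed by 0.43 within libraries numbered 1 (adjusted p = 0.516) and by 1.55 within those numbered 2. The calls in the mean were lost in 9 of 14 alternatives for *Ier3*, in 5 for *Jun* and in 4 for *Dnajb1*. Of 75 tested list genes, 7 were called within number 1 and 34 within number 2, where 6.94% and 32.1% of all genes were called. Called within both, with the same sign, were *Bcl6*, *Hr*, *Mmp2*, *Mmp14*, *Ttr* and *Zbtb16*. The tissues of a state and number may come from 1 animal, so that a call within both numbers is no replication over animals.

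The pattern of neither gene was a close copy of the other. Over the 32 group means the rank correlation of *Klf9* and *Dio3* was 0.284. Among the genes most like *Klf9*, of 10917 with a mean of at least 5 CPM in a group, were *Cldn15.1* (Spearman rho 0.750), *Sec61a1* (0.739), *Mlph* (0.733) and *Stt3a* (0.733). Those most like *Dio3* were *Ism1* (0.665), *Selenbp1* (0.658), *Aspn* (0.654), *Fam180a* (0.636) and *Junb* (0.628). The group means share libraries and depth within a group, and these correlations are descriptions over 32 points.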

How the data were processed

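The authors purified RNA with TRIzol and made tagmentation libraries, which were sequenced in paired-end mode. For each library they deposited counts, that is, fragments assigned to the exons of 23251 gene models with featureCounts 1.6.0, without strand and without normalization. The methods name bowtie2 for axolotl reads in their account of the single-cell data, and the submitters' processing notes on the bulk libraries list STAR with no role, so that the aligner of the bulk libraries was not settled here.

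Groups came from the sample titles. Each library's total set the precision of its values (69278 to 27389476 counts). Counts were tested with edgeR 4.0.16 in R 4.3.3 (TMM, filterByExpr, quasi-likelihood F tests), with 1 coefficient per state and tissue over all 61 libraries and 20216 genes. The common dispersion was 0.313. Benjamini-Hochberg adjustment ran over all genes with a threshold of 0.05. No test was made for the 3 tissues with 1 metamorphosed library. Beyond the number of 2 animals per state, nothing says whether the libraries of a group came from separate animals, so that p-values measure only the spread between these libraries, which may be technical. The fit was tested on simulated data. A panel or a symbol used the gene model with most counts.

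*Klf9*, *Dio3* and the gene lists were chosen with earlier results of these data known. The list members named are those past the threshold in the mean over the 12 paired tissues, with *Rxra*, *Klf13* and the receptors and deiodinases always named. The 5 genes most like each member were taken by Spearman's rho over group means of log2(CPM + 1), computed with scipy 1.17.1 in Python 3.11.15, and 1 of them is not reported here. Genes set beside *Klf9* between replicates were chosen after their values were seen.

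Alternatives were other size factors, no low-count filter, DESeq2 1.42.0, voom in limma 3.58.1, replicate blocks, fewer libraries, summed gene models and leaving out each library. Same-numbered libraries of the 2 states did not deviate together: the correlation was over 0.1 in 3 of 12 tissues, with a range of -0.442 to 0.285.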

Additional observations from a re-analysis of the deposited data

Results flagged for a closer look

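*Klf9* differed between the states in 1 way among libraries numbered 1 and in another among those numbered 2. Its change was larger by 2.70 on the log2 scale among libraries numbered 2 than among those numbered 1 (SE 0.494, edgeR with the number as a term within each state, adjusted p = 0.000305), with metamorphosed libraries higher in 12 of 12 and in 2 of 12 tissues. Since 22.3% of genes were called in this comparison, it was not particular to *Klf9*. The numbers are not known to pair the states, so that the difference rests on the numbering. With the numbers crossed, the 12-tissue means of log2(CPM + 1) were 3.36 after against 3.22 before metamorphosis, and 2.48 against 1.79. Both were then higher after it. The test also takes tissues that may come from 1 animal as separate. Skin counts as not higher among libraries numbered 1, but its metamorphosed library there is the shallow one with 0 counts.

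The *Dio3* libraries of the states did not overlap in several tissues, in opposite directions, but no tissue passed in edgeR. The tissues named here were picked by that lack of overlap. Over all genes and tissues, both metamorphosed libraries lay above both neotenic ones in 16.9% of pairs and below them in 18%. In the liver both metamorphosed libraries lay below both neotenic ones (log2 fold change -7.15). In bladder (3.60), cloacal chamber (2.96), eye (5.81), intestine (4.35) and lung (2.52) both lay above. The difference of the change over the 12 tissues had an adjusted p of 0.154 in edgeR and 0.000146 in DESeq2, and no pair of tissues was tested by itself.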

How the results depend on the processing

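For *Klf9* (KLF9), the mean change of 0.46 turned to -0.69 among libraries numbered 1 and came to 2.00 with an adjusted p of 6.06e-05 among those numbered 2 (replicate block within each state, chosen after seeing the data). Its differences among neotenic tissues had an adjusted p of 0.0424 in limma voom, which called 1 tissue (gonad). For *Dio3* (DIO3), the mean change of 1.51 was no longer past the threshold in limma voom (1.31, adjusted p = 0.510), without the 5 libraries with shared transcripts and metamorphosed skin 1 (1.59, adjusted p = 0.0711), without spleen (1.02, adjusted p = 0.125) and among libraries numbered 1 (0.62, adjusted p = 0.717). The last 3 were chosen after seeing the data. The cause of the difference between edgeR and voom was not tested.

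Tissues in which *Dio3* changed numbered 0 in edgeR, 2 in DESeq2 (eye and liver), and 1 in voom and with only the 4 libraries of a tissue, added later (liver). The adjusted p of the difference between tissues was 0.154, and 0.000146 in DESeq2, 0.0394 in voom and 0.0237 without the libraries labelled neotenic stomach 2 and tail 2. Without spleen 1 neotenic tissue differed from the others in place of 5. The pathway genes changed were 11, and 5 in voom and 7 without 4 or 5 of the libraries with shared transcripts and skin 1. The signs turned for *Dio3* in kidney (0.17 without neotenic kidney 1, in a range of -1.84 to 0.17), stomach (3.69 without the pair of labelled libraries, 3.68 without stomach 2, in a range of -3.72 to 3.68) and tail (-1.03 without metamorphosed tail 2), and for *Rxra* (-0.67 without the 4 libraries with intestinal transcripts). In the fit for *Rxra* the shallow skin 1 was the only metamorphosed skin library left (SE 1.04). Its sign did not turn when skin 1 was left out as well.

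Leaving out 1 library at a time gave *Klf9* mean changes of 0.37 to 0.72 and *Dio3* mean changes of 1.20 to 2.27, with adjusted p-values of 0.00298 to 0.0880. The *Dio3* call was lost without neotenic spleen 2 or metamorphosed eye 2, intestine 2, lung 2, stomach 2 or tail 2. The adjusted p of the *Dio3* difference between tissues was 0.0360 to 0.259, and past the threshold without neotenic stomach 1 or tail 1, and that among neotenic tissues 3.60e-07 to 0.000102. For *Klf9* these were 1 and 0.0544 to 0.792. No tissue was called for either gene, and 8 to 12 pathway genes were. With 1 block term per replicate number for the 61 libraries, the pairing that the numbers would imply, *Klf9* came to 0.75 (adjusted p = 0.165) and *Dio3* to 1.42 (adjusted p = 0.049), with no call changed. With a block within each state they came to 0.65 (adjusted p = 0.064) and 1.40 (adjusted p = 0.041).

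The mean changes of *Klf9* and *Dio3* could not be fitted without metamorphosed skin 2 or without the 4 libraries, where only the empty skin library was left. Leaving out each library was not run for single neotenic tissues against the others, other than metamorphosed skin 1. Depth limits statements on *Dio3* in spleen and intestine (0 to 2 counts) and on both genes in metamorphosed skin 1.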

Other observations

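In single tissues, list genes of the pathway passed the edgeR test in skin, spleen and tail. In skin, *Carm1* was lower after metamorphosis by 2.00 on the log2 scale (SE 0.540, adjusted p = 0.0337) and its fellow arginine methyltransferase *Prmt1* changed by -1.69 (SE 0.487, adjusted p = 0.0411), *Klf5* by -2.70 (SE 0.694, adjusted p = 0.0282) and *Klf6* by -1.47 (SE 0.414, adjusted p = 0.0380), while *Pck1* changed by 5.22 (SE 1.47, adjusted p = 0.0379). This comparison called 4.89% of genes and rests on the shallow library and on skin 2 with its intestinal transcripts, whose part was not tested. In spleen *Mmp14* changed by 2.31 (SE 0.539, adjusted p = 0.0398, 0.49% of genes called) and in tail *Bcl6* by 4.46 (SE 1.10, adjusted p = 0.0450, 0.717% called). *Trhr*, the receptor of thyrotropin-releasing hormone, was higher in neotenic replicate 1 in 16 of 17 tissues (edgeR difference of replicate 2 from replicate 1 -2.35, SE 0.487, adjusted p = 0.00335), at medians of 0.644 and 0.0942 CPM, so that it rests on few reads.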
